A study of Rattus norvegicus with 12 samples.

Results

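The genes described here are those of heme oxygenase, ferritin and iron transport: Hmox1, Ftl1, Fth1, Tfrc, Slc40a1, Slc11a2, Aco1 and Ireb2. These 8 genes were chosen by their roles in heme and iron handling, with the fold changes of the comparisons below already known, so their values are a description and support no test. Of the 8, 7 have a row in all 3 deposited tables, among 12899 genes common to the tables, and these 7 passed the filter on low values in each comparison. Slc40a1, which encodes the iron exporter ferroportin, has no row in the tables used here and was not analysed.

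RNA was sequenced from cells that grew out of explanted nucleus pulposus, the soft centre of the spinal disc, of Wistar rats. The cells had been infected with lentivirus that delivered either an shRNA against TonEBP (shTon) or the control vector (PLKO). TonEBP, the product of Nfat5, is the transcription factor through which cells adapt to high osmolarity. The groups of 3 libraries each were shTon_TNF (shTon with TNF-a), PLKO_TNF (PLKO with TNF-a), shTon_CTR (shTon, untreated) and PLKO_CTR (PLKO, untreated). TNF-a, an inflammatory cytokine, was given at 50 ng/mL for 24 h. All 12 libraries come from cells that carried a lentiviral vector, and no group without one is part of the comparisons. Sample titles assign each library to set 1, 2 or 3, with no word in the labels on what a set shares. The sources used here give neither the age of the animals nor the number of shRNA sequences behind shTon.

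Iron enters most cells bound to transferrin, whose receptor is encoded by Tfrc, and leaves the endosome through the divalent metal transporter encoded by Slc11a2. Inside the cell it is stored in ferritin, a shell of the heavy chain encoded by Fth1, which oxidises iron, and the light chain encoded by Ftl1, which helps the mineral core form. Heme oxygenase 1, the product of Hmox1, breaks heme into biliverdin, carbon monoxide and iron, and is induced in many cells by oxidative and inflammatory stress. When iron is scarce, the regulatory proteins encoded by Aco1 and Ireb2 bind RNA hairpins, which protects the Tfrc transcript from decay and blocks translation of both ferritin chains. Control of ferritin by these proteins is therefore not visible in transcript levels. The nucleus pulposus has no blood vessels of its own.

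Reads recovered from the deposited values, summed over the genes a table lists, ran from 7160042 to 18645538 per library. By that sum no shTon library was above 12511943 and no PLKO library below 8906243 in any table. The full sequencing depth is not given. Nfat5, the gene targeted by the shRNA, had 1695, 499.7 and 232 normalised reads in shTon_TNF libraries of sets 1, 2 and 3, against 642, 1092 and 483 in PLKO_TNF. It had 458, 457 and 288 normalised reads in shTon_CTR libraries, against 685, 1363 and 1818 in PLKO_CTR. The targeted transcript was thus lower in 5 of 6 shTon libraries than in the PLKO library of the same set, and the set 1 library labelled shTon_TNF goes against its label. Fitted log2 fold changes of Nfat5 were -0.26 (SE 0.44) for shTon_TNF against PLKO_TNF and -1.61 (SE 0.33) for shTon_CTR against PLKO_CTR. Neither was called in the fit across all genes described below. The authors' deposited values (DESeq2) were -0.03 (adjusted p = 0.987) and -1.19 (adjusted p = 4.57e-05). A lower Nfat5 transcript under TNF-a is therefore not established. Of 12 nucleus pulposus markers, 4 have a row (Krt8, Cd24, Pax1 and Foxf1), and their summed level was 202 to 386 in set 1, 272 to 503 in set 2 and 1445 to 2484 in set 3. Most of the set 3 sum is Krt8, which reached 2278, while Cd24, Pax1 and Foxf1 reached at most 55.2, 138 and 156. The other 8, among them T, Acan, Col2a1 and Shh, have no row among the genes common to all the tables, the only rows searched for markers. Annulus fibrosus and tendon markers, 4 of 5 with a row, summed to 10463 to 34186 in set 1, 19814.5 to 56569 in set 2 and 6452 to 21479.5 in set 3. Col1a1, 1 of these, had a median of 18152 over the libraries. Skeletal muscle markers, 9 of 11 with a row, summed to 34394 to 79689 in set 1, 13097 to 24802 in set 2 and 171 to 246 in set 3. In bulk RNA, fewer cells of a type and less RNA per cell cannot be told apart.

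The promoters of Tfrc and Slc11a2 are shown because both genes were higher after TNF-a in every set and have entries in the RefSeq table of the GRCr8 assembly used for sequences. The windows hold the 250 bases before an annotated start, 5′ to 3′ on the gene's strand, which is the minus strand for both genes. The Tfrc window lies at chr11:81690319-81690568. Slc11a2 has a pair of annotated starts, with window A at chr7:133417789-133418038 and window B at chr7:133418940-133419189. Capitals mark matches to any of 5 motifs searched on both strands: TGANNNNGC (the core of the NRF2 element), an NF-kB site (GGGA and CC with any 4 bases between them), TGGAAA (the core of the TonEBP element), ACGTG (the core of the hypoxia element) and TGACG (a short form of the cAMP response element, CRE).
Tfrc: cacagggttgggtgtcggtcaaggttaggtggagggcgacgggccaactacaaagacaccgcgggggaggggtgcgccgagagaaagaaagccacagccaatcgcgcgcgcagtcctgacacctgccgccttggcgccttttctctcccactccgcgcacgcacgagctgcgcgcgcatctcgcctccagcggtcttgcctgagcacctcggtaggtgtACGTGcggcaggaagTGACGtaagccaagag
Slc11a2 window A: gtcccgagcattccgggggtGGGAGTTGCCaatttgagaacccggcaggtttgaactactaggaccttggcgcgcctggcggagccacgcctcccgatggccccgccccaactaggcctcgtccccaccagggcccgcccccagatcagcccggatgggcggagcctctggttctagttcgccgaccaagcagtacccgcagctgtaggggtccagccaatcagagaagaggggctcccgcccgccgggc
Slc11a2 window B: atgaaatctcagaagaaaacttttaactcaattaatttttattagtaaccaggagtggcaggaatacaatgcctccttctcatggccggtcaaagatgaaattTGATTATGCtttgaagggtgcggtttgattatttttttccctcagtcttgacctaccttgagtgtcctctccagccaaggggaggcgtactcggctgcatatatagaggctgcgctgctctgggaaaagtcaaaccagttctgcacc
The Tfrc window held the hypoxia element core at positions -31 to -27 and the short CRE form at -16 to -12 relative to the annotated start. Window A of Slc11a2 held an NF-kB match at -230 to -221, and window B held an NRF2 core match at -147 to -139. These are short motifs: of 33469 promoter windows of the same length, 16.6% held ACGTG, 18.2% TGACG, 16.4% the NF-kB site, 34.7% TGANNNNGC and 19.7% TGGAAA. A match describes letters, not a bound site. Of the other windows, that of Ireb2 held the NF-kB site, TGGAAA and TGACG, that of Slc40a1 held the NF-kB site, and that of Aco1 held none of the 5. Hmox1, Ftl1 and Fth1 have no entry in the table.

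In the fit across all genes (limma, adjusted p under 0.05), called genes were 3.61% of 12196 for TNF-a in shTon cells and 9.62% of 12373 for TNF-a in PLKO cells. They were 0.254% of 12213 for the knockdown under TNF-a and 0.113% of 12383 for the knockdown untreated. Of the 7 genes, 1 was called higher with TNF-a in shTon cells (Slc11a2) and 3 in PLKO cells (Hmox1, Tfrc and Slc11a2). Ftl1 was the 1 gene called lower with knockdown, both under TNF-a and untreated. For the difference between the TNF-a effects, 0 of the 7 and 0% of 12310 genes were called by limma, where 219 genes had an unadjusted p below 0.05. The same count was 0 in edgeR, where 247 genes had an unadjusted p below 0.05, and 0 in DESeq2, where 271 did. The median log2 fold change of the 7 was 0.15 for TNF-a in shTon cells, 0.42 for TNF-a in PLKO cells, -0.32 for knockdown under TNF-a and 0.06 for knockdown untreated, where the medians of all genes tested were -0.01, -0.01, 0.02 and 0.01. The comparisons share libraries, so their values for a gene are not separate evidence.

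Hmox1 had the largest share of its variance between groups, 74.9% of that of its log2 values, with 14.7% between sets. It had 2649, 1188 and 843 normalised reads in shTon_TNF libraries of sets 1, 2 and 3, and 5167, 3904 and 6541 in PLKO_TNF. Untreated, it had 1510.0, 1103 and 863 in shTon_CTR and 2653, 1354 and 1144 in PLKO_CTR. The 3 PLKO_TNF libraries lay above all 9 others, while the other groups overlapped. The share of all genes with such a separation was not counted. Group means were 1560.2 ± 959 in shTon_TNF, 5204 ± 1319 in PLKO_TNF, 1159 ± 327 in shTon_CTR and 1717 ± 817 in PLKO_CTR (SD, n = 3 each). Macrophages degrade heme in large amounts, and 2 of 12 macrophage markers have a row (Cd68 and Cd14). Their sum was 299.8 to 677 in shTon_TNF, 186 to 293 in PLKO_TNF, 252 to 524 in shTon_CTR and 277 to 346 in PLKO_CTR, and their part in the level of Hmox1 was not tested. Most of the sum is Cd14, with a median of 254 over the libraries, against 33.1 for Cd68. The other 10, Ptprc, Csf1r and Cd163 among them, have no row among the genes common to all the tables.

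**Figure D1:**
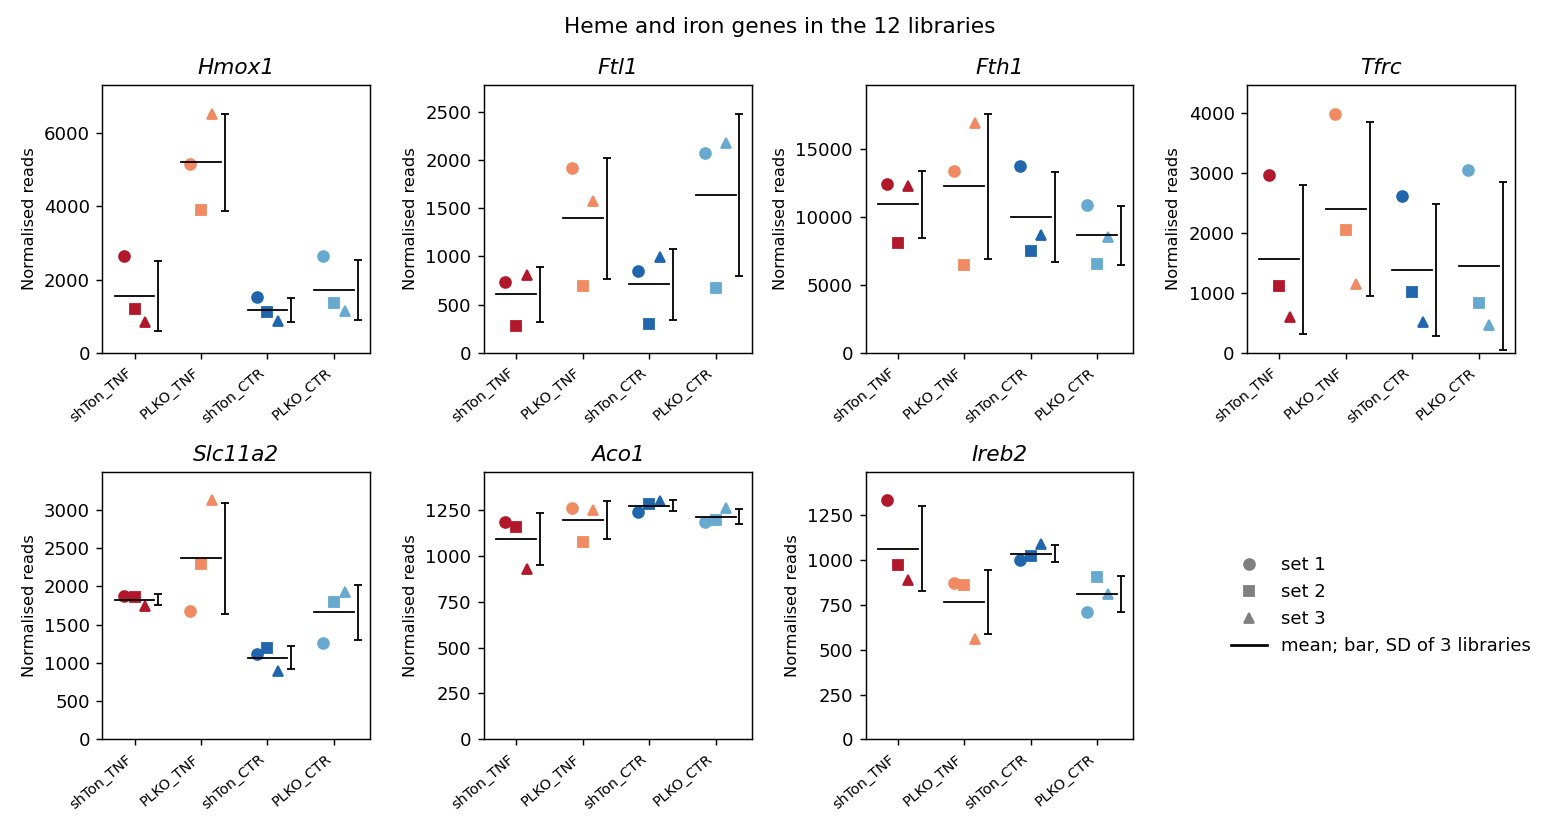
Normalised reads (y axis, linear from 0) of the 7 genes in the 12 libraries, by group, with marker shapes for sets 1 to 3, a line for the group mean and a bar for its SD. Hmox1 in the 3 PLKO_TNF libraries lies between 3904 and 6541, above the 9 others, and Tfrc runs in the order of set 1, set 2 and set 3 within each group.

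Within sets, the log2 ratio of Hmox1 after TNF-a was 0.81, 0.11 and -0.03 in shTon cells of sets 1, 2 and 3, and 0.96, 1.53 and 2.51 in PLKO cells. The fitted log2 fold change was 0.29 (SE 0.18) in shTon cells and 1.67 (SE 0.26) in PLKO cells. The fitted difference between these effects was -1.37 (SE 0.41), and within sets it was -0.15, -1.42 and -2.55. Set 1, whose shTon_TNF library is the one that goes against its label, thus had log2 responses 0.15 apart in shTon and PLKO cells. Without that library the fitted difference was -1.65, and without the whole of set 1 it was -1.98. It was -1.35 without set 2 and -0.79 without set 3. Under TNF-a the knockdown ratio of shTon_TNF to PLKO_TNF was -0.96, -1.72 and -2.95 on the log2 scale, with a fitted value of -1.87 (SE 0.33). Untreated, the ratio of shTon_CTR to PLKO_CTR was -0.81, -0.29 and -0.41, with a fitted value of -0.51 (SE 0.14).

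Ftl1, the ferritin light chain, was lower in shTon cells in every set, with and without TNF-a. It had 737, 274 and 805 normalised reads in shTon_TNF libraries of sets 1, 2 and 3, against 1921, 697 and 1572 in PLKO_TNF. It had 844, 295 and 996 in shTon_CTR, against 2072, 670.3 and 2180.5 in PLKO_CTR. Set 2 was the lowest library of every group, so the groups overlapped although shTon lay below PLKO in each set. The log2 ratio of shTon_TNF to PLKO_TNF was -1.38, -1.34 and -0.96 in the 3 sets, and that of shTon_CTR to PLKO_CTR was -1.29, -1.18 and -1.13. In set 1, whose shTon_TNF library goes against its label, the ratio of -1.38 stood beside a log2 ratio of 1.40 for Nfat5. Whether the level of Ftl1 follows that of Nfat5 was not tested. Fitted values were -1.23 (SE 0.16) under TNF-a and -1.21 (SE 0.11) untreated. The response to TNF-a was -0.20 (SE 0.13) in shTon cells and -0.18 (SE 0.12) in PLKO cells, both log2 fold changes. RefSeq lists 14 pseudogenes named after Ftl1 and 5 named after Fth1, and the sources used here do not give how reads that match several copies were counted, so both ferritin values are uncertain. A related row, Ftl1l1, held only 4.91 to 25.0 normalised reads.

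Fth1, the ferritin heavy chain, was not lower in shTon cells in every set, unlike Ftl1. It had 12441, 8085 and 12261 normalised reads in shTon_TNF libraries of sets 1, 2 and 3, and 13393, 6425 and 16967 in PLKO_TNF. Untreated, it had 13738, 7517 and 8696 in shTon_CTR and 10908, 6524 and 8506 in PLKO_CTR. All 4 groups overlapped. Fitted log2 fold changes of knockdown were -0.08 (SE 0.22) under TNF-a and 0.19 (SE 0.14) untreated, and those of TNF-a were 0.15 (SE 0.16) in shTon cells and 0.42 (SE 0.20) in PLKO cells. The TNF-a ratio in PLKO cells ran from -0.02 in set 2 to 1.00 in set 3.

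Tfrc, the transferrin receptor, had 2953, 1112 and 595 normalised reads in shTon_TNF libraries of sets 1, 2 and 3, and 3984, 2038 and 1145 in PLKO_TNF. It had 2607, 1011 and 504 in shTon_CTR and 3046, 827 and 461 in PLKO_CTR. Sets differed more than groups: 83.1% of the variance of its log2 values over the 12 libraries lay between sets and 14.7% between groups. Set means were 3148 ± 589, 1247 ± 541 and 676 ± 318 for sets 1 to 3 (SD over the 4 libraries of a set). The summed skeletal muscle markers given above fall in the same set order, and their part in the level of Tfrc was not tested. The log2 ratio after TNF-a was 0.18, 0.14 and 0.24 in shTon cells, and 0.39, 1.30 and 1.31 in PLKO cells. Fitted values were 0.18 (SE 0.12) in shTon cells and 1.00 (SE 0.19) in PLKO cells, and their difference was -0.81 (SE 0.23). Every set put the shTon response below the PLKO response, set 1 by the least. Under TNF-a the ratio of shTon_TNF to PLKO_TNF was -0.43, -0.87 and -0.94 in the 3 sets, with a fitted value of -0.75 (SE 0.17). The fitted ratio of shTon_CTR to PLKO_CTR was 0.06 (SE 0.14), and its sign differed between sets.

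Slc11a2, the endosomal iron transporter, was higher after TNF-a in both kinds of cell. It had 1868, 1862 and 1749 normalised reads in shTon_TNF libraries of sets 1, 2 and 3, against 1115, 1189 and 899 in shTon_CTR. It had 1682, 2291 and 3123 in PLKO_TNF, against 1254, 1799 and 1927 in PLKO_CTR. All 3 shTon_TNF libraries lay above all 3 shTon_CTR libraries, whereas PLKO_TNF and PLKO_CTR overlapped. The log2 ratio was 0.74, 0.65 and 0.96 in shTon cells and 0.42, 0.35 and 0.70 in PLKO cells, with fitted values of 0.78 (SE 0.13) and 0.49 (SE 0.11). The difference between the effects, shTon minus PLKO, was 0.29 (SE 0.29), and 0.15 without the library that goes against its label. The ratio of shTon_TNF to PLKO_TNF was 0.15, -0.30 and -0.84, and that of shTon_CTR to PLKO_CTR was -0.17, -0.60 and -1.10. All 3 shTon_CTR libraries lay below all 3 PLKO_CTR libraries, with a fitted value of -0.63 (SE 0.18), called in 1 of 12 settings. How many of all genes separate by group in such ways was not counted.

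**Figure D2:**
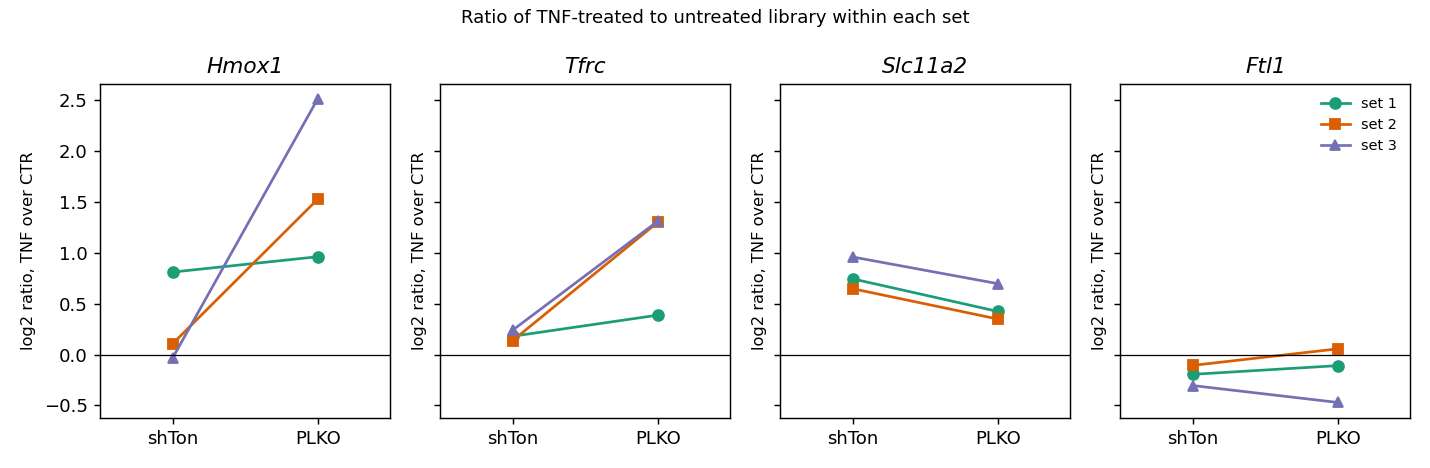
Log2 ratio of the TNF-treated to the untreated library (y axis) in shTon and PLKO cells for 4 of the genes, with a line joining each set. For Hmox1 and Tfrc the lines of sets 2 and 3 climb to 1.30 or more in PLKO cells, while set 1 stays below 1.00. The 6 ratios of Slc11a2 all lie above 0.

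Aco1 varied the least of the 7 genes. Aco1, which encodes the protein that is also cytosolic aconitase, had 1186, 1156 and 929.6 normalised reads in shTon_TNF libraries of sets 1, 2 and 3, and 1260.2, 1076 and 1248 in PLKO_TNF. It had 1241, 1281 and 1297 in shTon_CTR and 1185, 1194 and 1262 in PLKO_CTR. Its highest library was 1.40 times its lowest, and its fitted log2 fold changes lay between -0.23 (SE 0.13, TNF-a in shTon cells) and 0.06 (SE 0.11, knockdown untreated).

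Ireb2, which encodes the other regulatory protein, had 1332, 973 and 886 normalised reads in shTon_TNF libraries of sets 1, 2 and 3, against 871, 861 and 558 in PLKO_TNF. It had 997, 1022 and 1088 in shTon_CTR, against 708, 907 and 812 in PLKO_CTR. In both states the 3 shTon libraries lay above the 3 PLKO libraries, under TNF-a by a lowest of 886 against a highest of 871. Ireb2 was called in 0 of 12 settings in each knockdown comparison. The share of all genes that separate in this way was not counted. The log2 ratio of shTon_TNF to PLKO_TNF was 0.61, 0.18 and 0.67, and that of shTon_CTR to PLKO_CTR was 0.49, 0.17 and 0.42. Fitted values were 0.49 (SE 0.17) under TNF-a and 0.36 (SE 0.12) untreated, the opposite sign from Ftl1. The fitted response to TNF-a was 0.01 (SE 0.16) in shTon cells and -0.11 (SE 0.16) in PLKO cells.

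The calls of the 7 genes vary with the fit. Hmox1 and Tfrc with TNF-a in PLKO cells were each called in 10 of 12 settings and lost the call without the replicate block and without the mean-variance trend. Slc11a2 was called in 6 there, and lost the call also when any 1 set was left out, and in 8 of 12 for TNF-a in shTon cells. The knockdown call of Ftl1 held in 9 of 12 settings under TNF-a and 8 untreated. In both it was lost without the replicate block, without the mean-variance trend and with a pseudocount of 0.1, and untreated also without set 2. Hmox1 with knockdown under TNF-a was not called in the fit used here, yet it was called in 4 of 12, among them DESeq2 and the fits without set 1 or without set 2. Tfrc in the same comparison was likewise not called, yet it was called in 3 of 12, namely DESeq2, all 12 libraries in the fit and the fit without set 1. In the authors' deposited tables, the log2 fold changes of Hmox1 were -1.43 (adjusted p = 1.82e-06) with knockdown under TNF-a and 1.44 (adjusted p = 9.31e-10) with TNF-a in PLKO cells. Those of Tfrc in the authors' deposited tables were -0.64 (adjusted p = 0.032) and 0.89 (adjusted p = 6.85e-05). The authors' fold changes come close to a DESeq2 fit with a prior that shrinks them. They are thus not the same measure as the limma values.

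**Figure D3:**
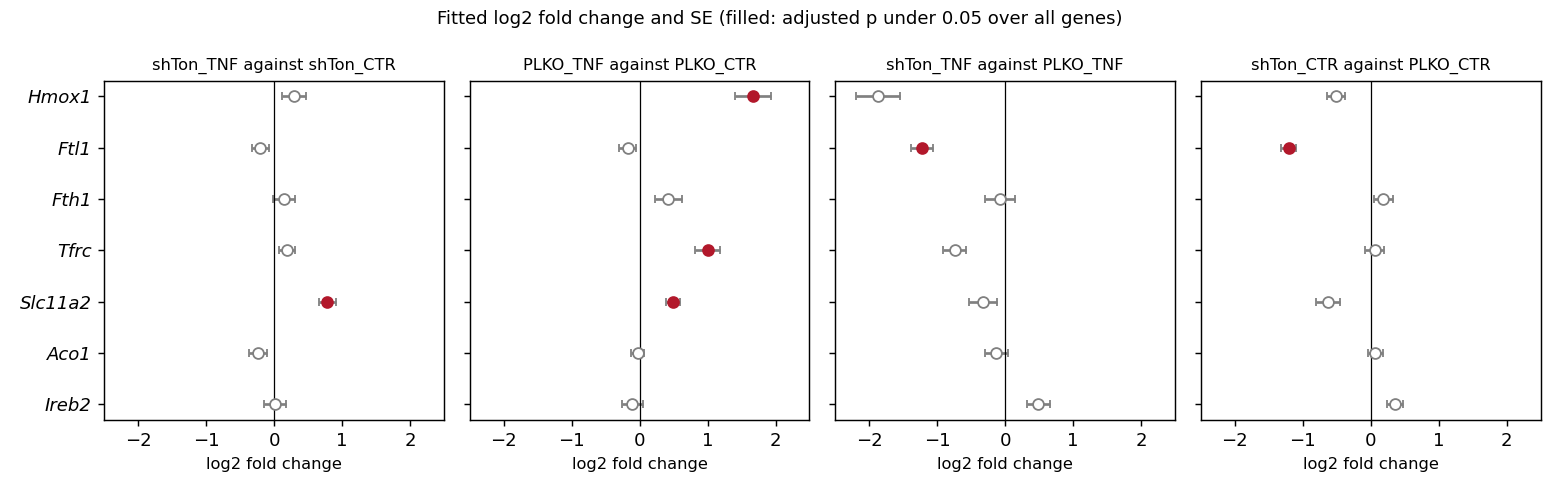
Fitted log2 fold change (x axis) of the 7 genes in 4 comparisons, with the SE as a bar, filled where the adjusted p in the fit over all genes was under 0.05. Hmox1 lies at 1.67 with TNF-a in PLKO cells and at -1.87 with knockdown under TNF-a, and Ftl1 lies at -1.23 and -1.21 in the knockdown comparisons.

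Around these genes, 84 other genes of heme and iron handling were listed in 9 groups, of which 73 could be tested in each comparison. With TNF-a in shTon cells 4 of the 73 rose, where 3.61% of all genes tested were called in either direction. In PLKO cells 10 of the 73 rose and 1 fell, where 9.62% of all genes tested were called. With knockdown under TNF-a 1 fell, where 0.254% of all genes were called, and with knockdown untreated none was called by limma. The 15 genes of the NRF2 and BACH1 axis, the regulators of Hmox1 and other NRF2 targets, accounted for 8 of the 10 that rose in PLKO cells. The 9.62% over all genes there is 615 genes called higher and 575 lower, of 12373 tested. The lists were drawn up with earlier results of these data known, so their counts are a description. By value all 15 were higher with TNF-a in PLKO cells, with a median log2 fold change of 0.59, against -0.01 over all genes tested.

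Slc7a11, the cystine importer that feeds glutathione synthesis, rose by the most of the axis in PLKO cells. It had 10054, 1730.0 and 145 normalised reads in shTon_TNF libraries of sets 1, 2 and 3, and 20344, 6764 and 498 in PLKO_TNF. It had 4154, 914 and 74.2 in shTon_CTR and 10199, 945 and 80.1 in PLKO_CTR. Like Tfrc and the summed skeletal muscle markers, it ran in the order of set 1, set 2 and set 3 in each group. Its log2 fold change was 1.05 in shTon cells (limma, adjusted p = 0.00942) and 2.15 in PLKO cells (limma, adjusted p = 0.0157). With knockdown under TNF-a it was -1.58 (SE 0.21, limma, adjusted p = 0.0389), the 1 listed gene called there. That call was lost in edgeR and without set 3, among other settings.

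Txnrd1, the cytosolic thioredoxin reductase, averaged 11316 ± 3136 normalised reads in shTon_TNF, 17155 ± 5027 in PLKO_TNF, 5280.0 ± 1688 in shTon_CTR and 5633 ± 3607 in PLKO_CTR (SD, n = 3 each). It rose with TNF-a in both kinds of cell, by 1.11 in shTon (limma, adjusted p = 0.00802) and 1.74 in PLKO (limma, adjusted p = 0.00767), both log2 fold changes. Maff, a small MAF partner of NRF2 and BACH1, rose by 1.17 in shTon cells (limma, adjusted p = 0.0107) and 1.18 in PLKO cells (limma, adjusted p = 0.0172). Called in PLKO cells and not in shTon cells were Srxn1, which repairs oxidised peroxiredoxins, at 1.41, the glutamate-cysteine ligase subunits Gclm at 1.02 and Gclc at 0.78, the small MAF gene Mafg at 0.87, and Bach1, the heme-binding repressor of Hmox1, at 0.59. Their adjusted p in limma ran from 0.0147 (Gclc) to 0.0226 (Bach1), with 3 of 3 sets higher for each. Whether the responses of the axis genes differ between shTon and PLKO cells did not pass the test of the difference. There 0 of 15 were called, beside 0% of all 12310 genes tested. By value all 15 were below 0, with a median of -0.31, against 0.001 over all genes tested. With knockdown under TNF-a, 14 of the 15 were lower by value, with a median of -0.56, against 0.02 over all genes tested. Both counts use the same PLKO_TNF libraries, so they are not separate evidence.

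**Figure D4:**
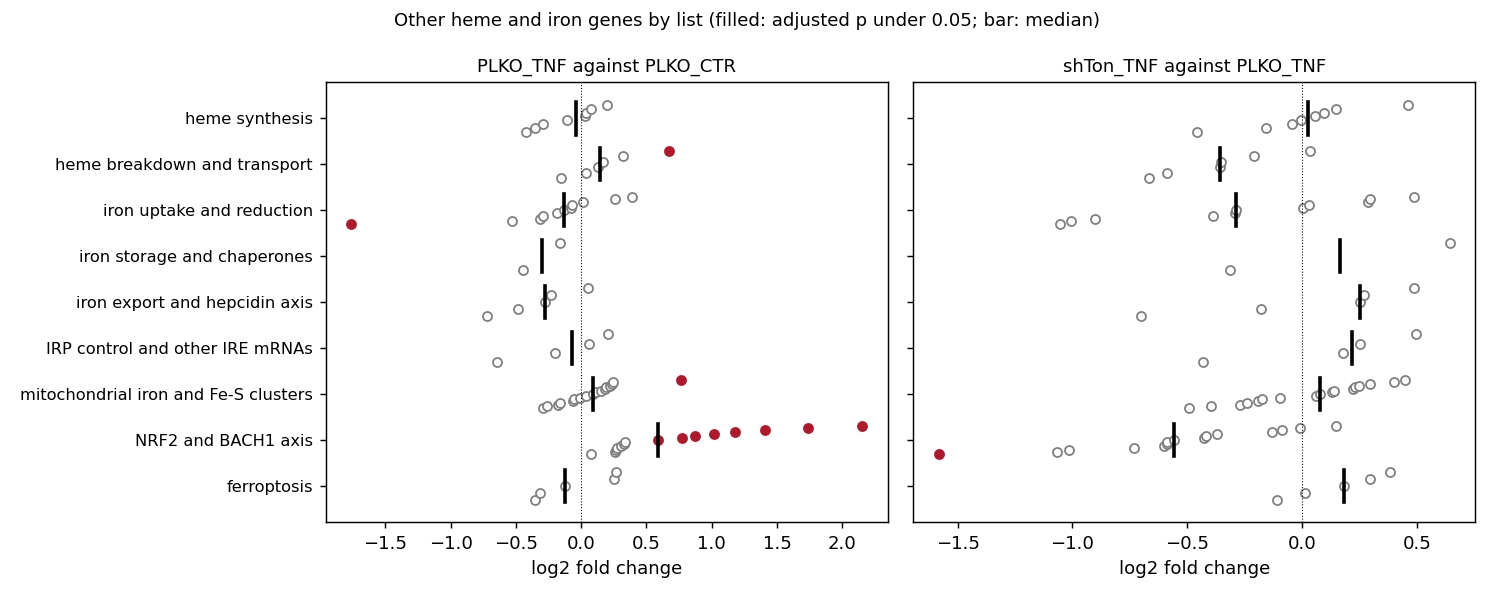
Log2 fold change (x axis) of the other heme and iron genes by list (rows), filled where the adjusted p was under 0.05, with a bar at the list's median, for TNF-a in PLKO cells (left) and knockdown under TNF-a (right). In the NRF2 and BACH1 list 8 genes are filled on the left, up to Slc7a11 at 2.15, and 1 on the right, Slc7a11 at -1.58.

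Outside that axis, Slc48a1, which moves heme out of endosomes and lysosomes, rose by 0.67 with TNF-a in PLKO cells (limma, adjusted p = 0.0301). Slc25a37, the mitochondrial iron importer mitoferrin, rose by 0.89 in shTon cells (limma, adjusted p = 0.0299) and 0.76 in PLKO cells (limma, adjusted p = 0.0363). Steap4, a ferrireductase, fell by 1.76 in PLKO cells (limma, adjusted p = 0.0240), with 54.3, 96.1 and 38.0 normalised reads in PLKO_TNF libraries of sets 1, 2 and 3, against 131, 680.2 and 89.5 in PLKO_CTR. The other 10 tested genes of iron uptake, the other 5 of heme breakdown and transport and the other 16 of mitochondrial iron and iron-sulfur clusters were not called by limma in any comparison.

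No gene of the other 5 lists was called by limma. In heme synthesis (8 genes), Alas1, the rate-limiting enzyme, had log2 fold changes of -0.46 for knockdown under TNF-a and 0.20 for TNF-a in PLKO cells, and Urod had 0.46 and -0.36. In iron export, Cp, which encodes the ferroxidase ceruloplasmin, averaged 5273 ± 2976 normalised reads in shTon_TNF, 7845 ± 2042 in PLKO_TNF, 7356 ± 3659 in shTon_CTR and 11544 ± 5694 in PLKO_CTR (SD, n = 3 each), and Hfe had a log2 fold change of -0.72 for TNF-a in PLKO cells. Cp was lower in all 3 sets with TNF-a and with knockdown, with fitted values between -0.70 and -0.48. In storage, Ncoa4, the receptor that delivers ferritin for breakdown, had -0.32 for knockdown under TNF-a, and Pcbp2, an iron chaperone, had 0.64. The value of Pcbp2 rests on the set 1 library that goes against its label: it had 863, 194 and 223 normalised reads in shTon_TNF libraries of sets 1, 2 and 3, against 251, 205 and 191 in PLKO_TNF. For knockdown untreated its log2 fold change was -0.65, most of which comes from the PLKO_CTR library of set 3. Pcbp2 had 201, 191 and 168 normalised reads in shTon_CTR libraries of sets 1, 2 and 3, against 220, 230 and 490 in PLKO_CTR. Among other transcripts with iron-responsive hairpins, Cdc14a had -0.65 and Epas1 0.20 for TNF-a in PLKO cells. Of the ferroptosis genes, Gpx4, which reduces lipid peroxides, had -0.35 and Sat1 0.27 in that comparison.

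Likeness of pattern was measured as Pearson's r of log2 values over the 12 libraries after each set's mean was taken off, among 10445 genes. The libraries share sets and groups, so r is a description. Nearest to Hmox1 were Trim37 (r = 0.97), Kpna1 (0.96) and Trim35 (0.96). For Ftl1 they were Capn7 (0.99), Gla (0.98) and Galnt1 (0.98), and for Fth1 St3gal3 (0.94), Ppp2r3b (0.93) and Cnn3 (0.91). Tfrc lay nearest to Slc7a11 (0.96), Qsox2 (0.94) and Abcf2 (0.94), and Slc11a2 to Scin (0.97), Cyp7b1 (0.97) and Serpine2 (0.96). Aco1 lay nearest to Dennd4c (0.95), Psap (0.94) and Arsk (0.93), and Ireb2 to Sec24d (0.98), Ranbp10 (0.97) and LOC683565 (0.97). Among the 7 themselves, r was 0.90 for Hmox1 with Tfrc, 0.76 for Hmox1 with Slc11a2 and -0.30 for Ftl1 with Fth1. It was -0.66 for Hmox1 with Ireb2 and -0.67 for Ftl1 with Ireb2.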

How the data were processed

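Each of the 3 deposited tables covers 2 groups (6 libraries) and holds a normalised signal per gene and library, per the file headers. The submitters' processing notes name Novoalign 2.08.01, DESeq2 and the rat build rn5. The sources used here do not give the read counter, library kit or strandedness. Each signal was a whole multiple of 1 step per library, within 0.001 read, for 100% of values, so read counts were recovered from the deposited signal. The deposited tables also hold the authors' own log2 fold changes and p-values, printed only where named as theirs. A DESeq2 refit with a prior on fold changes and a set term came within a median of 0.000452, 0.000416 and 0.000607 of those fold changes.

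Levels are recovered reads over the 12899 common genes, scaled together with DESeq2 1.42.0 size factors. Fold changes were fitted with limma 3.58.1 in R 4.3.3 on log2(value + 1), which understates changes of low genes, with a mean-variance trend and the set as a replicate block. Genes averaging under 10 normalised reads were left out, and p-values were Benjamini-Hochberg adjusted over all genes at 0.05. The deposited pairs were fitted on deposited values; TNF-a within shTon cells and the difference between TNF-a effects (shTon minus PLKO) were fitted on jointly scaled reads. Set numbers pair the libraries: deviations from the group mean had r of 0.609 to 0.889 in 18 same-set pairs and -0.741 to 0.18 in 36 others. Deviations of the 3 libraries of a group sum to 0, so the low r of the others follows in part from the centring. It is not separate evidence of pairing. Within groups, libraries differed by a chi-square of 73.3 to 167 per degree of freedom, so no library was counted as a copy. Since the nature of a set is not known, p-values reflect the spread among these samples alone, which may be technical. Alternatives included edgeR 4.0.16.

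The members and lists were chosen with earlier results of these data known. Named beside the members were listed genes called in at least 1 comparison, otherwise up to 2 per list with the largest change, and the 3 genes nearest in pattern to each member among those averaging 50 or more normalised reads. Sequences come from RefSeq (GRCr8), a different build from the authors', so no coordinates of theirs are used. Figures were drawn with matplotlib 3.10.9.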

Additional observations from a re-analysis of the deposited data

How the results depend on the processing

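The number of genes called depended on the fit more than the fold changes did. With the sets as a replicate block, limma called 1190 genes for TNF-a in PLKO cells, 14 for knockdown untreated, 31 for knockdown under TNF-a and 440 for TNF-a in shTon cells. With no replicate block the counts were 0, 0, 0 and 6, with 793, 504 and 770 genes at an unadjusted p under 0.05 behind the counts of 0. Without the mean-variance trend they were 55, 0, 0 and 166, with 1907 and 1879 genes at an unadjusted p under 0.05 behind the counts of 0. With all 12 libraries in the fit they were 696 for TNF-a in PLKO cells, 3 for knockdown untreated and 444 for knockdown under TNF-a. A pseudocount of 0.1 gave 2 and 12 in the knockdown comparisons, DESeq2 406 and 369, and edgeR 20 and 29. Leaving out 1 set at a time gave 545 to 1410, 12 to 283, 32 to 488 and 325 to 1338 genes. The cause of these changes was not tested. The count for the difference between TNF-a effects was 0 in every setting run.

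Of the members' alternative values, 383 moved by less than the spread between sets, whether or not the sign or call held. That count is no evidence of stability. Dropping the block, the filter or the trend leaves a fold change as it was. Leaving out 1 of the 3 sets shifts a mean by less than this spread by construction. Calls lost and gained among the members' alternative values are given above. Some small values changed sign, such as Fth1 with knockdown under TNF-a, at -0.08 in the main fit and 0.12 without set 3. The other 2, for the difference between TNF-a effects, moved when the set 1 library of shTon_TNF was left out, a setting chosen after seeing the data: Slc11a2 had 0.15 and Ireb2 -0.05. Among alternative values of called pathway genes, 134 kept the call and 42 lost it, 16 of them without the block and 15 without the trend, and none turned sign. Slc7a11 with knockdown under TNF-a lost its call in edgeR, without the block, without the trend, with a pseudocount of 0.1 and without set 3. Reads on listed genes were 7160042 in the library with the fewest, and the members with a row had at least 274 normalised reads in every library.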
